A study of Saccharomyces cerevisiae with 4 samples.

Results

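Occupancy of RNA polymerase II was followed over 10 genes that encode enzymes making threonine, asparagine and serine in the budding yeast Saccharomyces cerevisiae, on 4 arrays. The members were HOM2, HOM3, HOM6, THR1, THR4, SER1, SER2, SER33, ASN1 and ASN2. They were chosen by name, with earlier results of these data known. Their values are means over the array probes that the files place inside each gene. All 10 had a value on every array, from 47 probes in all and 3 to 6 probes a gene, out of 5490 genes with a value on every array. Chromatin immunoprecipitation with tiling arrays (ChIP-chip) was done in a strain with TAP-tagged Rpb4 (2 arrays) and in a strain with TAP-tagged Rpb3 (2 arrays), both labelled as S288c. Rpb3 belongs to the core of the polymerase, whereas Rpb4 forms a stalk with Rpb7 that can come off the enzyme. Cells of both strains were in log phase in rich medium (YPD) at 25 °C, with an optical density of about 0.8, and were fixed with 1% formaldehyde for 20 minutes. On all arrays the precipitated DNA (IP) carried Cy5 and the input DNA of the whole-cell extract (WCE) carried Cy3. A dye effect thus stays in the level of each subunit. It cancels in the difference between subunits only as far as it was alike on all arrays. No untagged strain was used here as background. Occupancy was expressed as log2(IP/WCE) after the array's median over probes was subtracted. A value of 0 is thus the level of a middling probe, at which some polymerase may still be bound. The number of arrays limits the precision. Whether the arrays of one strain came from separate cultures is not in the labels. The p-values therefore reflect the array-to-array spread alone, which may be technical.

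Aspartate is the starting compound of a pathway that leads through homoserine to threonine, and also to methionine. Hom3, Hom2 and Hom6 carry aspartate to homoserine, and Thr1 and Thr4 carry homoserine to threonine. Asn1 and Asn2 are asparagine synthetases that convert aspartate to asparagine. Serine is made from an intermediate of glycolysis by Ser33 or its paralog Ser3, then by Ser1 and Ser2. In yeast, many genes of amino acid synthesis are activated by the transcription factor Gcn4 when amino acids run short.

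Over these genes the Rpb4 ratio was below the Rpb3 ratio in all 10, by amounts that ran from -1.43 at HOM2 to -0.13 at SER1. In total 5 passed the test across all genes (HOM2, HOM3, THR4, SER33 and ASN2; limma with Benjamini-Hochberg adjustment), and 0 were higher. Over all genes tested 2.51% were called lower in the Rpb4 arrays and 0.929% higher, 3.44% in all. At an unadjusted p under 0.05 there were 8 of 10 members, against 21.8% of all genes. The median difference was -0.55 over the members and 0.01 over all genes. In each of the 10 genes both Rpb4 arrays lay below both Rpb3 arrays, a pattern seen in 28.7% of all genes. The count rested on single arrays. It was 2 of 10 without Rpb4 array 1 (HOM2 and HOM3), when 0.528% of all genes were called lower, and 0 of 10 without Rpb4 array 2, when 0 genes were. It was 9 of 10 without Rpb3 array 1 and 9 of 10 without Rpb3 array 2, but those fits also called 29% and 15.7% of all genes lower. In the fit that gave 0 of 10, the members' median difference was -0.57. All 10 differences stayed negative there, which the lack of overlap between the groups made certain. The spread between arrays differed by group, as the median gap per gene between arrays of a group was 0.035 for Rpb4 and 0.140 for Rpb3.

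**Figure D1:**
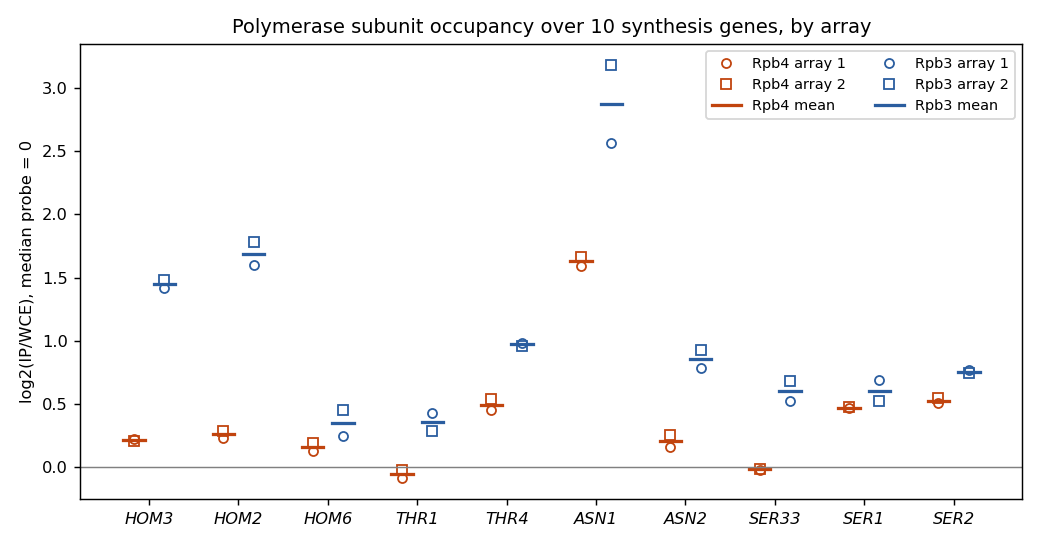
Occupancy of each gene on each array, as log2(IP/WCE) with the median probe at 0 on the vertical axis. Circles and squares are arrays 1 and 2, short lines are group means, Rpb4 is orange and Rpb3 is blue. In all 10 genes both Rpb4 arrays lie below both Rpb3 arrays, with the widest gaps at HOM2, HOM3 and ASN1 and the narrowest at SER1.

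The trunk of the aspartate pathway held the members of largest and of nearly the smallest difference. HOM3 (YER052C, chromosome 5, probes from 256425 to 257790 as the files give positions, with no build named), which encodes aspartate kinase, had ratios of 0.22 and 0.21 on the Rpb4 arrays, against 1.42 and 1.48 on the Rpb3 arrays. The Rpb4 values lay close to the median probe and the groups were far apart, with a difference of -1.24 ± 0.06 (SE, 2 against 2 arrays; limma adjusted p = 0.0108). HOM2 (YDR158W, chromosome 4, probes from 770402 to 771369), which encodes aspartate semialdehyde dehydrogenase, had 0.23 and 0.29 on the Rpb4 arrays, against 1.60 and 1.78 on the Rpb3 arrays. Its difference of -1.43 ± 0.09 (limma adjusted p = 0.0115) made the Rpb4 ratio 2.69-fold lower, the largest change among the members. HOM6 (YJR139C, chromosome 10, probes from 689234 to 690102), which encodes homoserine dehydrogenase, had 0.13 and 0.19 on the Rpb4 arrays, against 0.25 and 0.45 on the Rpb3 arrays. The HOM6 groups did not overlap but came within 0.06 of each other, and the difference of -0.19 ± 0.09 did not pass (limma adjusted p = 0.311, 95% interval -0.44 to 0.06).

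At the threonine end both genes lay lower with Rpb4, by less than at HOM2 and HOM3. THR1 (YHR025W, chromosome 8, probes from 159651 to 160280), the homoserine kinase gene, had -0.09 and -0.02 on the Rpb4 arrays, against 0.43 and 0.28 on the Rpb3 arrays. It was one of 2 members whose Rpb4 values were all below the median probe, and its difference of -0.41 ± 0.08 missed the threshold (limma adjusted p = 0.0813). THR4 (YCR053W, chromosome 3, probes from 216858 to 218217), the threonine synthase gene, had 0.45 and 0.54 on the Rpb4 arrays, against 0.98 and 0.96 on the Rpb3 arrays. THR4 fell by 0.48 ± 0.06 (limma adjusted p = 0.0440), close to the threshold, and it missed it under 6 of 14 other settings for the values or the test.

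The asparagine synthetase genes differed in level from each other on every array. ASN1 (YPR145W, chromosome 16, probes from 822715 to 824227) had 1.59 and 1.66 on the Rpb4 arrays, against 2.56 and 3.18 on the Rpb3 arrays. It was the member of highest occupancy with either subunit, above 97.2% of all genes with Rpb4 and above 99.3% with Rpb3. Its arrays did not overlap between the groups, but the Rpb3 arrays stood 0.62 apart, the widest gap of any member, and the difference of -1.24 ± 0.22 did not pass (limma adjusted p = 0.0730, 95% interval -1.85 to -0.64). The ASN1 difference was -1.56 without Rpb3 array 1 (limma adjusted p = 0.000188) and -0.93 without Rpb3 array 2 (limma adjusted p = 0.000792), fits that called 29% and 15.7% of all genes lower. Without Rpb4 array 1 it was -1.21 (limma adjusted p = 0.234) and without Rpb4 array 2 it was -1.28 (limma adjusted p = 0.222). ASN2 (YGR124W, chromosome 7, probes from 740184 to 741555) had 0.16 and 0.25 on the Rpb4 arrays, against 0.79 and 0.93 on the Rpb3 arrays. ASN2 fell by 0.65 ± 0.08 (limma adjusted p = 0.0362), which made its ratio 1.57-fold lower, and it missed the threshold under 3 of 14 other settings. Within an array ASN2 lay below ASN1 by -1.43 and -1.41 on the Rpb4 arrays, and by -1.77 and -2.25 on the Rpb3 arrays. The genes are related in sequence, and whether a probe of one also bound DNA of the other was not tested, as probe sequences were not used here.

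In the serine branch SER33 fell, while its paralog of the same step and the later genes gave small differences. SER33 (YIL074C, chromosome 9, probes from 221089 to 222489), which encodes a 3-phosphoglycerate dehydrogenase, had -0.02 and -0.01 on the Rpb4 arrays, against 0.53 and 0.69 on the Rpb3 arrays. It fell by 0.62 ± 0.08 (limma adjusted p = 0.0375), to the level of the median probe in the Rpb4 arrays. Its paralog SER3 (YER081W), which is not among the 10 genes, averaged 1.61 with Rpb4 and 1.60 with Rpb3, a difference of 0.01 ± 0.08 (95% interval -0.22 to 0.23). Within an array SER33 minus SER3 was -1.59 and -1.67 on the Rpb4 arrays, and -0.997 and -0.998 on the Rpb3 arrays. Whether a probe of one of these paralogs also bound DNA of the other was likewise not tested. SER1 (YOR184W, chromosome 15, probes from 679419 to 680373), the phosphoserine aminotransferase gene, had 0.47 and 0.48 on the Rpb4 arrays, against 0.69 and 0.52 on the Rpb3 arrays. The SER1 groups came within 0.04 of each other, and the difference of -0.13 ± 0.08 did not pass (limma adjusted p = 0.377, 95% interval -0.35 to 0.08). SER2 (YGR208W, chromosome 7, probes from 912026 to 912636), the phosphoserine phosphatase gene, had 0.51 and 0.55 on the Rpb4 arrays, against 0.77 and 0.74 on the Rpb3 arrays. Its difference of -0.23 ± 0.06 did not pass (limma adjusted p = 0.132), and it became 0.03 when the median of its 3 probes replaced the mean.

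By level, 7 of 10 genes lay above the median probe with Rpb4, against 37.9% of all genes, and 10 of 10 with Rpb3, against 38.4% of all genes (limma). HOM6, THR1 and SER33 were the members that did not pass with Rpb4, at 0.16, -0.05 and -0.02. With the median over probes in place of the mean, 5 of 10 passed with Rpb4 and 9 of 10 with Rpb3. The shares of all genes under that setting were not taken, so these counts cannot be set against them. With the mean over probes, none of the 10 lay below the median probe by the limma test with either subunit. This compares with 25.8% of all genes with Rpb4 and 29.2% with Rpb3. The 7 became 4 without Rpb4 array 1 and 3 without Rpb4 array 2, when 19.5% and 18.4% of all genes lay above. The median level of the members was 0.24 with Rpb4 and 0.81 with Rpb3, and the median over all genes was 0.05 with Rpb4 and 0.03 with Rpb3. These levels are ratios to the input at the same probe, averaged over probes, and do not grow with gene length. With Rpb4 the order from high to low was ASN1, SER2, THR4, SER1, HOM2, HOM3, ASN2, HOM6, SER33 and THR1. Arrays of neighbours in that order overlapped for SER2 and THR4, THR4 and SER1, HOM3 and ASN2, and ASN2 and HOM6. With Rpb3 the order was ASN1, HOM2, HOM3, THR4, ASN2, SER2, SER33, SER1, THR1 and HOM6, with overlap for SER33 and SER1 and for THR1 and HOM6. HOM2 and HOM3 thus stood in the middle of the members with Rpb4, above 68.0% and 64.4% of all genes, and just after ASN1 with Rpb3, above 95.9% and 94.5%. Among all genes SER2 and SER1 stood at similar percentiles with either subunit, above 82.6% and 80.3% of genes with Rpb4, and above 86.2% and 82.7% with Rpb3. The level of SER2 rests on 3 probes, which averaged -0.08, 0.33 and 1.33 with Rpb4, and 0.03, 0.30 and 1.94 with Rpb3.

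The ratio can differ through either of its channels. In the IP channel all 10 genes had less signal with Rpb4 than with Rpb3, and HOM3, THR1 and SER33 passed the test (3 of 10, against 2.97% of all genes; limma). In the WCE channel HOM2, HOM3 and ASN1 had more input signal in the Rpb4 strain and passed (3 of 10, against 3.32% of all genes), while SER33 had less and passed (1 of 10, against 5.54%). The IP count became 0 without either Rpb4 array. It became 10 without Rpb3 array 1 and 9 without Rpb3 array 2, in fits that called 42.4% and 24% of all genes lower in that channel. The count of higher WCE signal stayed at 3 or 4 in those 4 fits, against 1.38% to 6.83% of all genes. HOM2 differed by -0.98 ± 0.13 in the IP channel and by 0.46 ± 0.05 in the WCE channel. For HOM3 these were -0.93 ± 0.08 and 0.32 ± 0.04, and for ASN1 they were -0.80 ± 0.23 and 0.46 ± 0.04. The WCE differences of the other members except SER33 ran from -0.02 at SER1 to 0.15 at ASN2. The IP and WCE differences had opposite signs in 7 of 10 members and in 53.5% of all genes. At HOM2, HOM3 and ASN1 the ratio's difference thus combined a negative IP difference with a positive WCE difference. Whether the WCE signal differed through the amount of input DNA or through the labelling and hybridisation was not tested.

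**Figure D2:**
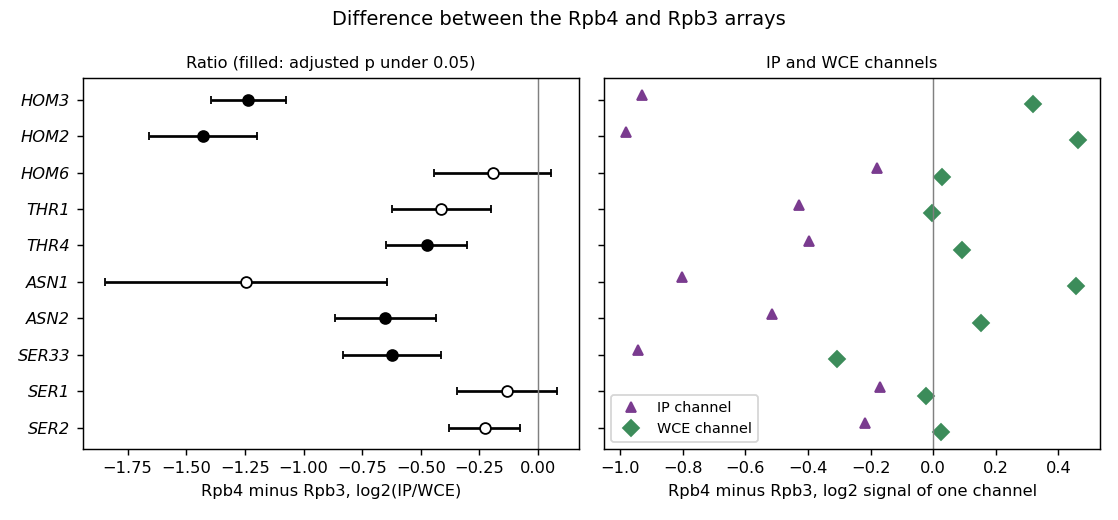
Rpb4 minus Rpb3 for each gene. The left panel shows log2(IP/WCE) with 95% intervals from limma, filled where the adjusted p was under 0.05, and the right panel shows the difference in the IP channel (triangles) and in the WCE channel (diamonds). All 10 ratio and IP differences lie below 0, and the WCE difference is largest at HOM2 (0.46) and ASN1 (0.46) and lowest at SER33 (-0.31).

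SER33 lies on chromosome 9, where the WCE signal of the strains differed over most genes. The WCE difference had a median of -0.42 over 197 genes of that chromosome, and 194 of them were below 0, against a median of 0.00 over all genes. With each array's median probe at 0, the median WCE signal of these genes was 0.09 and 0.07 on the Rpb4 arrays. On the Rpb3 arrays it was 0.48 and 0.52, further from the median probe. The IP difference on chromosome 9 had a median of -0.54. Of the 197 genes 182 were called lower in the WCE channel and 96 in the IP channel (limma). The WCE call of SER33 was thus 1 of 182 on the chromosome, and its IP call was 1 of 96. In the ratio 12 of the 197 were called lower. SER33 itself differed by -0.94 ± 0.10 in the IP channel and by -0.31 ± 0.03 in the WCE channel. The IP value lay below the chromosome's 5th percentile of -0.88, whereas the WCE value ranked 176 from the lowest of the 197 genes. The ratio, in which a shared shift cancels, had a median difference of -0.11 on the chromosome, and SER33 was the tenth lowest of the 197 genes there. With chromosome 9 centred on its own probes, a setting chosen after the data were seen, SER33 differed by -0.56 (limma adjusted p = 0.0444).

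Single probes showed the same direction along most genes. Of the 47 probes inside the members 45 had a lower ratio with Rpb4 and 2 a higher one, and in 45 both Rpb4 arrays lay below both Rpb3 arrays, as in 28.7% of all probes. The test over all probes called 11 of 47 lower, against 0.736% of all probes, with all 5 probes of HOM2, all 5 of HOM3 and 1 of ASN1 among them. Without Rpb4 array 1 or array 2 these calls became 10 and 12, against 0.929% and 0.845% of all probes. Without Rpb3 array 1 or array 2 they became 38 and 40, against 34.7% and 18.2% of all probes. Probes of 1 gene share DNA fragments and are not replicates. Along ASN1 the difference was nearly even, from -1.34 to -1.16 over 6 probes, and along HOM3 it ran from -1.35 to -1.01 over 5 probes. ASN2 ran from -0.97 to -0.27 over 5 probes, and SER2 from -0.61 at its 3' probe to 0.03 at the middle one. The 3' probe of SER2, 723 bp from the start of SER2, had 1.30 and 1.36 on the Rpb4 arrays, against 1.68 and 2.19 on the Rpb3 arrays. It lies near TRX2, a thioredoxin gene downstream, whose 1 inside probe averaged 1.81 with Rpb4 and 1.89 with Rpb3, while the other 2 probes of SER2 averaged -0.08 and 0.33 with Rpb4, and 0.03 and 0.30 with Rpb3.

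**Figure D3:**
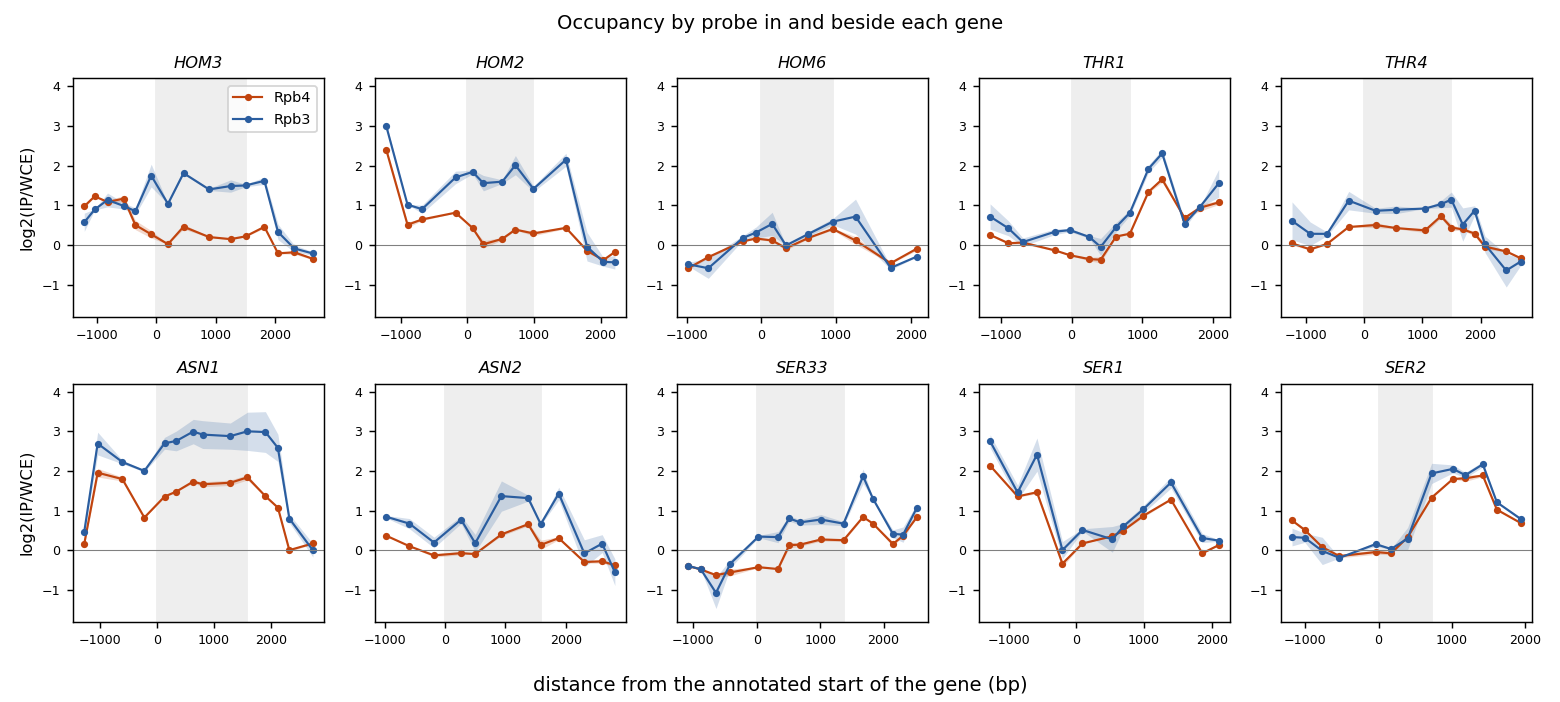
Occupancy by probe within 1300 bp of each gene. The horizontal axis is the distance from the annotated start in bp, the vertical axis is log2(IP/WCE), lines are means of the Rpb4 (orange) and Rpb3 (blue) arrays, bands span the arrays of a group and the grey area runs from the start to the last probe inside the gene. The gap between the lines covers the whole of HOM2, HOM3 and ASN1 and closes on either side of HOM3, while the lines run closer together over HOM6, SER1 and the first 2 probes of SER2 than at the 3' probe of SER2.

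The 3' part of a gene minus its 5' part was compared over genes with at least 4 probes, which left 9 members. The difference of this shape between the subunits ran from -0.13 at HOM3 to 0.26 at SER33, and it passed the limma test in 0 of 9 members and in 0.0% of 3530 genes. At an unadjusted p under 0.05 there were 1 member and 345 genes. Without Rpb3 array 1 the test called 3 members lower and 3 higher, against 27.6% and 37.5% of all genes, and without Rpb3 array 2 it called 2 higher, against 18.1%. Within Rpb4 the 3' part was higher in 5 of 9 members (HOM6, THR1, SER1, SER33 and ASN2), and within Rpb3 in 4 of 9 (THR1, SER1, SER33 and ASN2), against 44.0% of all genes with Rpb4 and 34.6% with Rpb3 called in either direction. THR1 rose most toward its 3' end, by 0.61 ± 0.08 with Rpb4 and by 0.56 ± 0.08 with Rpb3. Past its end, at 1281 bp from its start and in the promoter of VMA16 (PPA1 in the files), a probe had 1.73 and 1.58 on the Rpb4 arrays, against 2.21 and 2.41 on the Rpb3 arrays, a difference of -0.65 that did not pass the probe test (limma adjusted p = 0.145).

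Beside the genes the difference took several courses. At HOM3 the probe 88 bp upstream of the start differed by -1.48 ± 0.22, the probe 354 bp upstream by -0.35 and the probe 549 bp upstream by 0.19, none of which passed the probe test. Past the 3' end of HOM3, the probe 1820 bp from the start had 0.43 and 0.49 on the Rpb4 arrays, against 1.53 and 1.71 on the Rpb3 arrays (limma adjusted p = 0.0423). At HOM2 the probe 1480 bp from the start lies past the gene's end and is annotated to the promoter of SAC3. It had 0.46 and 0.42 on the Rpb4 arrays, against 1.99 and 2.31 on the Rpb3 arrays. This was the largest difference of any probe in the members or within 1300 bp of them, at -1.72 ± 0.15 (limma adjusted p = 0.0327), and the next probe, inside SAC3, differed by -0.10. Upstream of ASN1 the probe at 223 bp differed by -1.18 (limma adjusted p = 0.0349), whereas those at 609 and 1043 bp differed by -0.43 and -0.73 and did not pass. Downstream of ASN1 the probes at 1903, 2122, 2323 and 2737 bp from the start differed by -1.62, -1.51, -0.80 and 0.17, and none passed. The first probe past the end of SER33 and of ASN2 also differed by more than any probe inside the gene, by -1.03 and -1.12, and did not pass. These probes are annotated to the promoters of the next genes, RPN2 and VSB1 (YGR125W). The probes after them differed by -0.63, inside RPN2, and by -0.22, in the VSB1 promoter. In all, 3 of 85 probes within 1300 bp of the members were called lower and 0 higher, against 0.736% and 0.171% of all probes.

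Averaged over the probes annotated to a gene's promoter, 9 members had an upstream value. All 9 were lower with Rpb4, and HOM2, THR1 and ASN1 passed (3 of 9, against 4.71% of 5221 genes; limma). The HOM2 value rests on 1 probe, 177 bp upstream of the start. That probe did not pass the test over all probes (limma adjusted p = 0.0972). The differences were -0.89 ± 0.13 at HOM2, -0.55 ± 0.08 at THR1 and -0.78 ± 0.10 at ASN1, and the median was -0.38 over the 9 genes and -0.18 over all genes. The count was 0 without either Rpb4 array. It was 6 of 9 without Rpb3 array 1, when 53.2% of all genes were called lower upstream, and 8 of 9 without Rpb3 array 2, when 60.4% were. The promoter of THR1 is shared with MAS2, so its probes stand for both genes. The promoters of ASN1, ASN2, SER1 and SER2 are likewise shared with a divergent gene in the files' annotation. Of the 20 nearest genes on either side of the members, 0 passed in either direction (limma). An unadjusted p under 0.05 was found in 6 of these 20, against 21.8% of all genes, and their median difference was 0.03. The lowest were RPS30B beside SER1 (-0.52 ± 0.10, adjusted p = 0.0801), a ribosomal protein gene, and RSC6 beside THR4 (-0.41 ± 0.15).

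Lists of genes that make, use, carry or sense the same amino acids had median differences between -0.52 and -0.00. The shares of all genes to set beside their counts are 2.51% called lower, 0.929% called higher and 21.8% at an unadjusted p under 0.05. A list of 8 genes covered the use of threonine and the path from homoserine to methionine and cysteine. Of these 3 fell and 1 rose, with a median difference of -0.52, and the 3 that fell act after homoserine has been acetylated. MET17, which encodes homocysteine synthase, fell by 2.01 ± 0.10 (limma adjusted p = 0.0108), MET6, which encodes methionine synthase, fell by 1.53 ± 0.15 (0.0230), and the cystathionine beta-synthase gene CYS4 fell by 0.55 ± 0.07 (0.0447). Without Rpb4 array 2 the fit called 0 genes of the genome lower and 0 higher, the genes of all these lists included. MET2, which encodes the enzyme that draws homoserine toward methionine, stood at -0.48 ± 0.09 and did not pass (limma adjusted p = 0.0834). CHA1, the gene of the catabolic serine and threonine deaminase, rose by 0.69 ± 0.07 (limma adjusted p = 0.0285), with means of -0.27 with Rpb4 and -0.96 with Rpb3.

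Of 10 genes of serine, glycine and one-carbon metabolism, 0 fell and 2 rose, CHA1 and the serine hydroxymethyltransferase gene SHM2 (0.56 ± 0.06, limma adjusted p = 0.0329). SHM2 differed by 0.13 in the IP channel and by -0.41 in the WCE channel. The threonine aldolase gene GLY1 had the lowest value of that list, at -1.26 ± 0.22, and did not pass (limma adjusted p = 0.0675). The list's median was -0.17, and 6 of its genes had an unadjusted p under 0.05. No call was made among 7 genes of aspartate supply and use, which include the aspartate aminotransferase genes AAT1 (0.21 ± 0.19) and AAT2 (-0.29 ± 0.10). Their median was -0.00, and 2 had an unadjusted p under 0.05 (limma). The 5 genes that charge tRNA with these amino acids gave 0 calls and a median of -0.22, with 3 at an unadjusted p under 0.05, and DED81, the asparaginyl-tRNA synthetase gene, was lowest at -0.51 ± 0.08, whereas the glycyl-tRNA synthetase gene GRS1 was highest at 0.08 ± 0.10. Among 8 uptake genes, which encode permeases and the amino acid sensor Ssy1, there were 0 calls (limma), a median of -0.05 and 5 at an unadjusted p under 0.05, from BAP2 (-1.07 ± 0.17) to AGP1 (0.56 ± 0.10).

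Of 7 control genes FPR1 fell, by 0.66 ± 0.05 (limma adjusted p = 0.0187). FPR1 encodes the FKBP proline isomerase, a protein also known to bind Hom3, and its value rests on 1 probe. GCN4 stood at 2.85 with Rpb4 and 2.89 with Rpb3, a difference of -0.04 ± 0.12 (95% interval -0.36 to 0.28), and GCN2, the kinase gene of the same control, had the highest difference of the list, at 0.11 ± 0.07. A list of 32 genes of the lysine, arginine, histidine, branched-chain and aromatic pathways, given for comparison, had 25 genes lower and 0 higher. This compares with 2.51% and 0.929% of all genes. The list's median was -1.12 without HIS3, whose input signal was lower by 7.46 in the Rpb4 strain, against -0.55 for the 10 members. Such medians describe the lists, and no test between them was made.

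**Figure D4:**
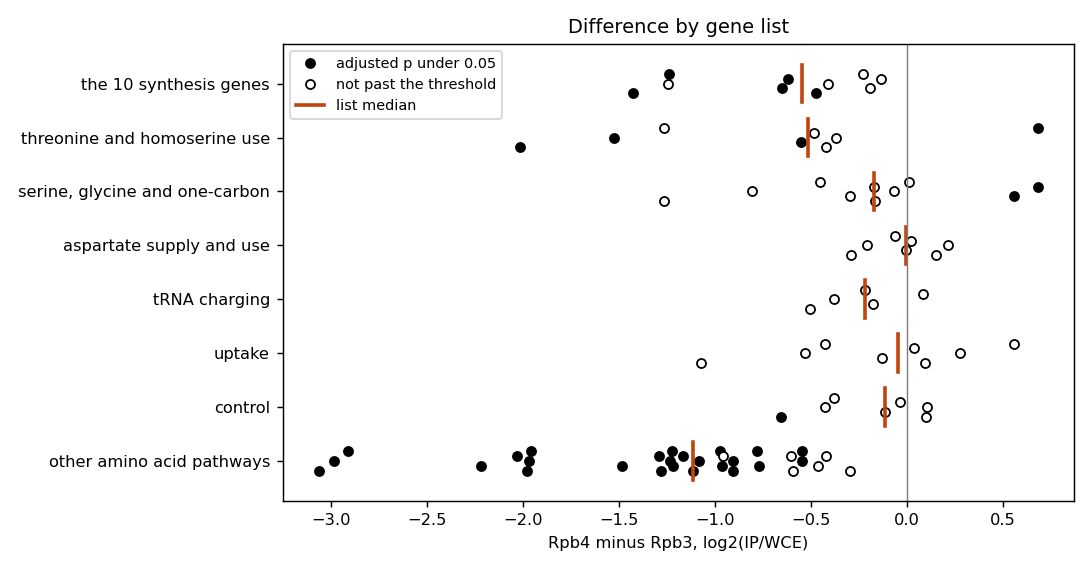
Rpb4 minus Rpb3 in log2(IP/WCE) for the 10 genes and for lists of related genes, with HIS3 left out. Each point is a gene, filled where the adjusted p was under 0.05, short lines are list medians, and points are spread vertically for legibility. All 10 synthesis genes lie below 0 with a median of -0.55, and the other amino acid pathways reach lower (median -1.12). Of the genes above 0, only CHA1 and SHM2 passed the threshold.

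Across the 4 arrays the genes outside the 10 whose values were closest to those of HOM2 were LEU1, HIS5 and CYC1, at root-mean-square distances of 0.14, 0.17 and 0.17. LEU1 and HIS5 encode enzymes of leucine and histidine synthesis, and CYC1 encodes cytochrome c. LEU1 had 0.43 and 0.42 on the Rpb4 arrays, against 1.46 and 1.85 on the Rpb3 arrays. For ASN1 the closest were ERV2, GLY1 and UTR5, at 0.16, 0.16 and 0.17. GLY1 had 1.75 and 1.81 on the Rpb4 arrays, against 2.74 and 3.34 on the Rpb3 arrays.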

How the data were processed

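ChIP-chip was done on Agilent yeast arrays of 4 by 44k with 60-nucleotide probes about 290 bp apart, per the labels. Per the submitters' processing notes, the software was Agilent Feature Extraction 9.1. Each deposited array file holds background-subtracted, normalized intensity values of the IP and the WCE channel with gene annotation per probe, per the file headers. In the values, the IP intensity equalled foreground minus background minus an array constant of 5 to 10, and the WCE intensity the same with a constant of 11 to 18, times an array factor of 0.446 to 0.928. The series table deposited by the authors holds a log2 ratio per probe, with column medians of -0.042 to -0.0051. Of its values 99.8 to 99.9% were found in the arrays' own log2 ratio column, so scale and direction were taken as those of that column, and the table was used for nothing else. For the positions, the genome build is not given in the sources used here.

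From log2(Norm IP/Norm WCE), taken with no pseudocount, the median of the 41775 probes on each array was subtracted. Control spots and spots excluded by the scanner software were left out (81 to 179 an array). Foreground over background had array medians of 72.9 to 126 for IP and 151 to 168 for WCE. Gene values were means over probes inside a gene, and 5478 of 5493 genes matched RefSeq names. Group means, differences, channels, upstream probes, shape (3' minus 5' part, at least 4 probes) and single probes were each fitted with limma 3.58.1 in R 4.3.3 over all features, two-sided, with Benjamini-Hochberg adjustment at 0.05. Tables were handled in Python 3.11.15 with pandas 2.3.3, and the fit was checked on simulated data. All arrays lay on 1 slide, so slide could not be a block.

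The members and the gene lists were chosen with earlier results of these data known. The text names all members, their paralog SER3 and their nearest neighbours with the lowest values. From each list it names the genes that passed and the extremes, and for HOM2 and ASN1 the 3 genes with the smallest distance over the 4 arrays. For the pathways given for comparison counts are given. MET2, GCN4, HIS3 and TRX2 and the probes beside the genes were named after their values were seen. Alternatives covered the centring, the scale, the background, the probe filters, the probe summary, the limma options, and leaving out each array.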

Additional observations from a re-analysis of the deposited data

How the results depend on the processing

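The difference was negative for all 10 members in every fit that left out 1 array. No other sign was possible there, because both Rpb4 arrays lay below both Rpb3 arrays in each member. Among the 14 other settings the exception was SER2 with the median over probes (0.030, limma adjusted p = 0.935). HOM2 and HOM3 were called lower under all 14 settings, with differences of -2.04 to -1.23 and -1.78 to -1.07. THR4 lost its call under 6 of 14, ASN2 under 3 and SER33 under 1, while ASN1 gained one under 3. With centring on probes inside 54 meiosis genes the members called lower were 2, their median difference was -0.60, and 65 genes were lower and 21 higher. With arrays brought to one scale the members called lower were 3, their median was -0.49, and 105 genes were lower and 65 higher. Quantile normalization gave a median of -0.47 and 191 genes higher. The normexp background gave a median of -0.74, with 273 genes lower and 109 higher. The median over probes left 3 members called lower, with 106 genes lower and 36 higher. The cause of these shifts was not tested.

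Leaving out 1 array at a time gave 0 to 9 members lower, 0 to 1592 genes lower and 0 to 1843 higher, and 3 to 8 members above the median probe with Rpb4. The members' median difference then ran from -0.58 to -0.51. The same fits gave 0 to 3 members lower and 0 to 3 higher in shape, 10 to 40 member probes lower and 0 to 2 higher, 0 to 10 members lower in the IP channel and 0 to 8 lower upstream. The share of all genes called lower ran from 0% to 29% over these fits, and higher counts of members came from the fits without an Rpb3 array. In each such fit the lone array was assumed to vary like the other group.

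No paired analysis was possible because the labels give no replicate numbers that groups share. The Rpb4 arrays differed less from each other than the Rpb3 arrays, so tests rested mainly on the Rpb3 spread, and 2 arrays a group limit what can be called. The median probe of every array stood at least 72.9 times above background in both channels. No untagged control sets the level of background precipitation, and tag, strain and subunit cannot be told apart.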
